A study of Mus musculus with 30 samples.

Results

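The 8 genes described here, Ercc3, Map3k2, Iws1, Sft2d3, Wdr33, Polr2d, Ammecr1l and Sap130, are neighbours of Bin1 on mouse chromosome 18. They were chosen by name for their place beside the floxed Bin1 gene, and are 8 of the 47643 genes in the expression table. The question was whether deletion of Bin1 in microglia, the resident macrophages of the brain, changed the RNA of the genes beside it. All 8 were expressed in each of the 30 libraries, and all 8 passed the filter on low values that left 16897 genes for testing.

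RNA was sequenced from microglia that had been sorted by FACS from 3 month-old mice. Homo mice carried 2 floxed Bin1 alleles and Cx3Cr1-Cre (Bin1 flox/flox::Cx3Cr1-Cre+), and Het mice carried 1 floxed allele and Cre (Bin1 wt/flox::Cx3Cr1-Cre+). WT mice were littermates without Cre, described in a figure legend of the study as Bin1 wt/flox::Cx3Cr1-Cre- and named only wild type in other places, while Cre-negative controls of another cross in the study were a mix of flox/wt and flox/flox, so that a floxed allele may be present in the controls too. There were 5 male WT, 6 male Het, 5 male Homo, 4 female WT, 5 female Het and 5 female Homo libraries, each from 1 mouse number, and nothing was pooled as far as the labels say. Values are FPKM, the fragments of a gene divided by its transcript length and by the total mapped in that library, so that levels can be compared between genes, and libraries were further scaled to each other for the tests.

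The design limits what a neighbour can be compared with. Cre is driven from the Cx3cr1 gene, which other myeloid cells also use, and the Cre allele replaces part of Cx3cr1. Presence of Cre and deletion of Bin1 cannot be told apart in Het or Homo against WT, since no group had Cre without a floxed allele. Homo and Het mice differ in the number of deleted alleles and also in the number of chromosomes that came from the floxed line, whose strain name says that it was made in another inbred strain and moved to B6. Genes as close to Bin1 as these travel with it in such a cross. Deletion and strain of origin of the flanking chromosome therefore cannot be told apart in Homo against Het. By the legend, the same holds for Homo against WT. WT and Het mice would carry the same number of floxed chromosomes if the legend holds.

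Bin1 encodes a membrane-bending adaptor of the amphiphysin family. Its neighbours belong to other families, and most of them encode parts of the general transcription and RNA processing machinery of the nucleus. Ercc3 is the XPB translocase of TFIIH, the factor that opens promoter DNA for RNA polymerase II and unwinds DNA in nucleotide excision repair. Polr2d is the RPB4 subunit of RNA polymerase II, Iws1 works with Spt6 in elongation, and Wdr33 reads the polyadenylation signal as a part of the cleavage and polyadenylation factor CPSF. Sap130 is a subunit of the Sin3 histone deacetylase complex. Map3k2, also called MEKK2, is a kinase upstream of the ERK5 and JNK pathways, Sft2d3 is a member of the SFT2 family of Golgi vesicle transport proteins, and Ammecr1l is a paralogue of Ammecr1 whose molecular role is little known.

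In the GENCODE annotation of GRCm38, all 8 genes lie on the same side of Bin1, upstream of its start. Bin1 itself spans bases 32377230 to 32435737 of chromosome 18 on the plus strand. Ercc3 (32240300 to 32270151) is the nearest, with 107.1 kb between its end and the start of Bin1. Map3k2 (32163089 to 32236751) ends 140.5 kb and Iws1 (32067741 to 32104328) 272.9 kb from Bin1. Sft2d3 (31909098 to 31911824), the only one of the 8 on the minus strand, lies 465.4 kb away beside Wdr33 (31804090 to 31907397), which is 469.8 kb away. Polr2d (31789159 to 31796701) and Ammecr1l (31759826 to 31782743) are 580.5 kb and 594.5 kb away, and Sap130 (31634371 to 31723061) is the farthest at 654.2 kb. Ammecr1l has exons that overlap those of Gm26533, an antisense gene, and Gm26823 and Gm6665 lie on the opposite strand within Wdr33 without shared exons. The library kit named in the study does not mark strand, so that reads from overlapping exons of Ammecr1l and Gm26533 cannot be told apart.

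Bin1 was the check of the labels. It ranged from 230.3 to 289.5 FPKM in the 5 male WT libraries and from 244.4 to 270.9 FPKM in the 4 female WT libraries, against 39.9 to 55.6 FPKM in male Homo and 39.5 to 43.3 FPKM in female Homo mice. Which exons are removed is not given in the sources used here, and the value of the whole gene includes exons that stay. In Het mice Bin1 was between 117.3 and 164.3 FPKM except in 2 libraries, Het-M-0199 at 51.8 FPKM and Het-F-0206 at 42.7 FPKM (named by genotype, sex and mouse number), which lay at the level of Homo mice. Cx3cr1 was also at 13.9 FPKM in Het-F-0206, against 1048.4 to 1242.6 FPKM in the other female Het libraries. Counts past the thresholds in Het against WT mice were therefore also recomputed without both libraries. Log2 fold changes without both are given only for Ammecr1l and where the sign changed. For Homo against Het mice only the counts past the thresholds were recomputed without both.

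Depth relative to the median library, estimated from the most frequent ratio between libraries of low values of the same gene, was between 0.669 and 1.41. Its median was 1.18 in male WT, 0.916 in male Het and 0.92 in male Homo libraries. In females it was 1.12 in WT, 1.0 in Het and 0.946 in Homo libraries, and WT (1.05 to 1.34) did not overlap Homo (0.854 to 1.01). The part of depth in the results below was not tested. Markers of microglia summed to between 15672.8 and 23343.5 FPKM in all libraries, and Cd3e and Cd3g of lymphocytes were at 0 in all groups. The sum of 8 neutrophil markers had a median of 72.2 FPKM (43.9 to 349.3) in male WT and of 0.575 FPKM (0 to 80.8) in male Homo libraries, and the sum of 3 choroid plexus markers 72.2 FPKM (0.166 to 264.2) and 11.3 FPKM (0.351 to 22.6), and that of 5 border macrophage markers 32.7 FPKM (13.0 to 36.5) and 16.8 FPKM (10.3 to 23.4). Median sums of monocyte (7.7 and 5.03 FPKM) and endothelial markers (12.1 and 10.7 FPKM) were also lower in male Homo libraries. Higher there were those of oligodendrocytes and precursors (27.4 and 32.2 FPKM) and neurons (3.71 and 6.15 FPKM). So were those of astrocytes (1.04 and 1.28 FPKM) and lymphocytes (0.0511 and 0.227 FPKM). Neutrophil and choroid plexus medians were also lower in male Het libraries (12.1 and 5.96 FPKM) than in male WT. In female WT, Het and Homo libraries the neutrophil medians were 42.7, 23.6 and 11.7 FPKM. Choroid plexus medians were 12.1, 0.776 and 1.03 FPKM in these female groups, and endothelial ones 12.5, 12.9 and 12.8 FPKM. The part of all these markers in the results below was not tested. In sorted bulk samples fewer cells of a type and less RNA per cell cannot be told apart. Mouse numbers in the labels fall into an early range (up to 150) and a late one, and 3 of 5 male Homo and 2 of 6 male Het mice, but 0 of 5 male WT mice, are early.

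The 8 neighbours were expressed at moderate levels. Wdr33 was the highest with a mean of 25.7 FPKM over the 30 libraries, followed by Polr2d with 21.5 FPKM and Ammecr1l with 12.3 FPKM. Sft2d3 (8.2 FPKM), Sap130 (7.25 FPKM), Ercc3 (5.28 FPKM), Map3k2 (4.53 FPKM) and Iws1 (3.45 FPKM) were lower, the last at percentile 44.4 of the genes tested and Wdr33 at percentile 80.3. Polr2d was above Ammecr1l in all 30 libraries and Map3k2 above Iws1 in 28, whereas Wdr33 was above Polr2d, Ammecr1l above Sft2d3 and Sap130 above Ercc3 in 26 each, Ercc3 above Map3k2 in 23 and Sft2d3 above Sap130 in only 19 of 30, so that the order of these neighbours in the ranking was within their spread. By position, the 3 genes nearest to Bin1 were the lowest and those between 465.4 and 594.5 kb away the highest, with Bin1 itself at a mean of 138.1 FPKM.

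The neighbours differed in how much they varied between mice of the same group. The SD of the log2 level within groups was 0.14 for Iws1 and 0.15 for Wdr33, and it reached 0.27 for Sap130 and 0.30 for Sft2d3. For Iws1 this SD was at percentile 0.135 among the 1478 genes whose mean level lay within 0.5 of its own on the log2 scale, and for Ercc3 and Map3k2 it was at percentiles 12.3 and 14.3 among genes of their own level. Wdr33 was at percentile 15.3, Ammecr1l at 29.3 and Polr2d at 47.9. Sft2d3, at percentile 74.7, and Sap130, at percentile 60.2, were the more variable ones. From the lowest to the highest of the 30 libraries, Wdr33 differed by 1.58 times, Ercc3 by 1.60 times, Sap130 by 2.79 times and Sft2d3 by 3.62 times.

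**Figure D1:**
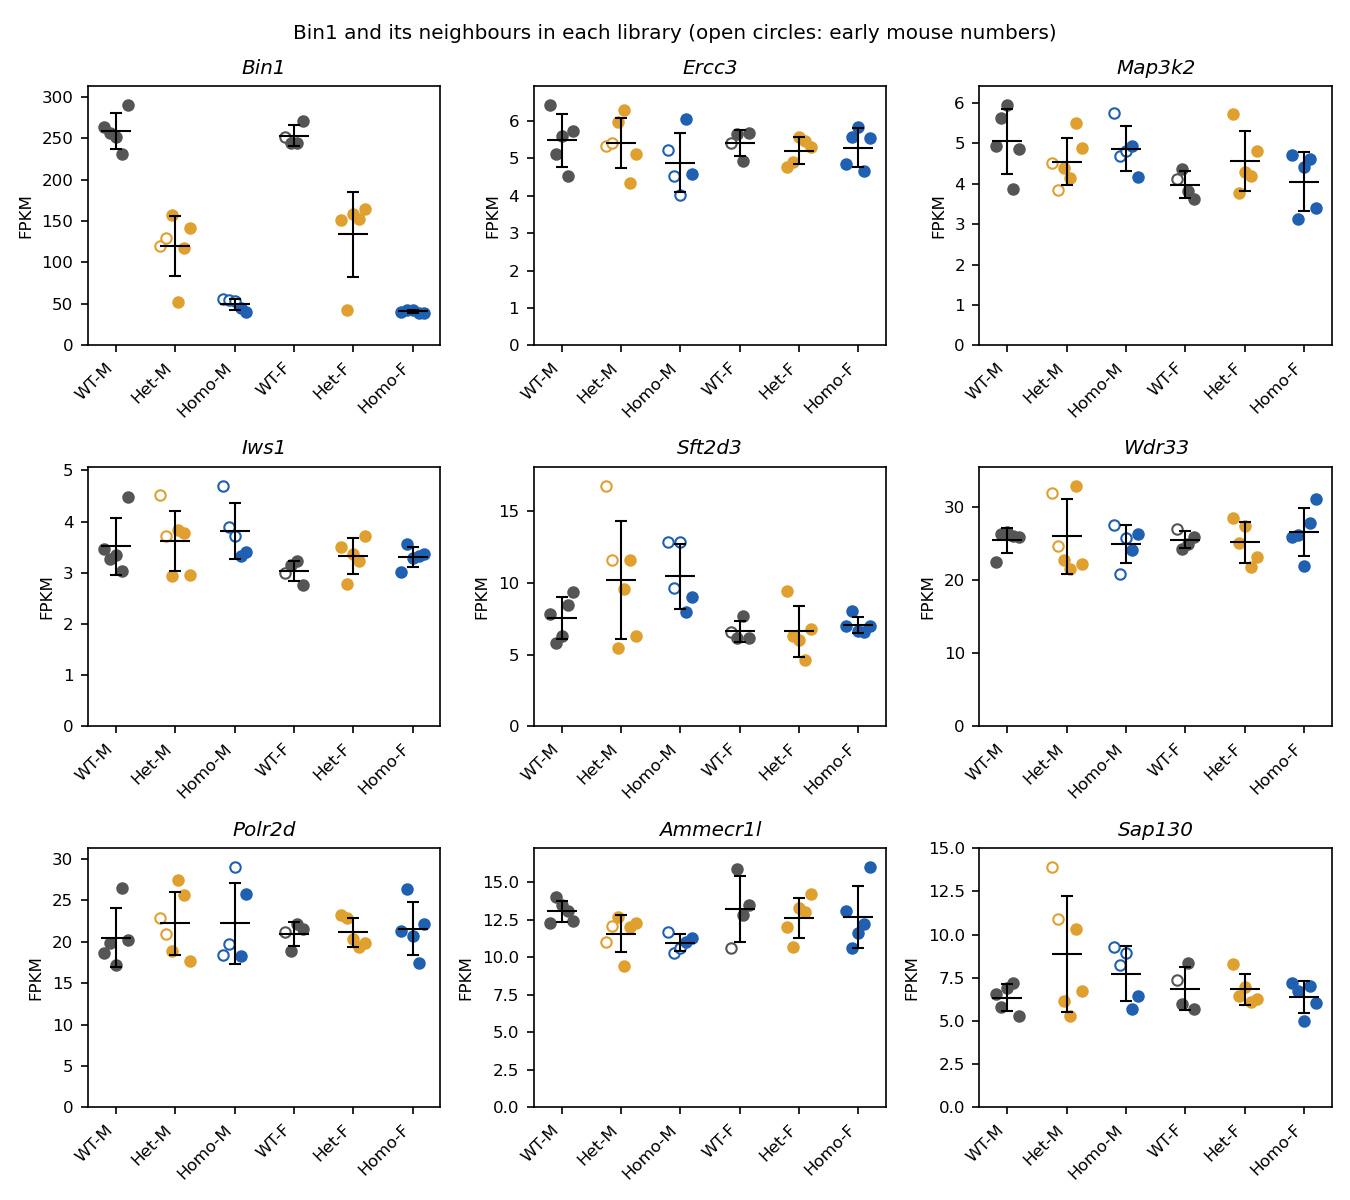
FPKM (vertical axis, linear from 0) of Bin1 and of the 8 neighbours in each library, by group (horizontal axis); circles are libraries, open for early mouse numbers, and bars give the mean and SD of the group. Bin1 is lower in Het than in WT libraries and lowest in Homo libraries, with Het-M-0199 and Het-F-0206 at the bottom of the Het groups. Within a sex, Het and Homo libraries each overlap WT for every neighbour, except for Ammecr1l in male Homo mice. There WT is at 12.3 to 14 FPKM and Homo at 10.3 to 11.7 FPKM.

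In male mice, none of the 8 neighbours passed the thresholds in Homo against WT (adjusted p below 0.05 and a change above 1.5-fold in either direction, limma over all genes with Benjamini-Hochberg adjustment), where 1.81% of the 16897 genes did. Bin1 was at 0.181 of its WT level in the same comparison. The log2 fold changes of the neighbours ran from -0.33 for Ammecr1l to 0.38 for Sft2d3, 4 of them above 0 and 4 below, with a median of -0.05 beside 0.03 over all genes tested. At an unadjusted p below 0.05 there was 1 neighbour, Ammecr1l, where 22.5% of all genes passed that limit. None had an adjusted p below 0.05 at any fold, as 2.82% of all genes had.

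In female mice, 0 of the 8 passed in Homo against WT, where 0.071% of all genes did. Here Bin1 was at 0.163 of WT, and the neighbours ran from -0.10 for Sap130 to 0.12 for Iws1 on the log2 scale, with 5 above 0 and 3 below and a median of 0.02. No neighbour was without overlap between the groups, as 2.31% of all genes were. None reached an unadjusted p below 0.05, as 3.49% of all genes did.

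Loss of a single copy gave the same count. In male Het against WT mice 0 of 8 passed, where 0.154% of all genes did, with log2 fold changes between -0.25 (Ammecr1l) and 0.33 (Sap130), and 1 neighbour, Ammecr1l, was below an unadjusted p of 0.05 where 14.2% of all genes were. In female Het against WT mice 0 of 8 passed, where 0.13% of all genes did, and 0 were below an unadjusted p of 0.05 where 3.95% of all genes were. Bin1 passed in male Het mice (-1.26, adjusted p = 0.0211) and did not in female Het mice (-1.07, adjusted p = 0.163), the group with Het-F-0206. The female values were between -0.06 (Ercc3 and Ammecr1l) and 0.18 (Map3k2). The groups overlapped for all 8 neighbours in both sexes, where 0.84% of all genes in males and 2.21% in females were without overlap. All Het and Homo comparisons of a sex share their WT libraries and are not independent of each other.

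Averaged over the sexes, which uses all mice, 0 of 8 passed in Homo against WT, where 0.515% of all genes did, and 0 of 8 in Het against WT, where 0.527% did. At an unadjusted p below 0.05 there was 1 neighbour, Ammecr1l, in Homo (14.1% of all genes) and 0 in Het (9.65% of all genes). The size of the change that the data allow is bounded by the intervals of these fits. In averaged Homo against WT, all 8 of the 95% intervals lay inside a 1.5-fold change in both directions, from a lowest bound of -0.38 (Ammecr1l) to a highest bound of 0.51 (Sft2d3) on the log2 scale, and 56.6% of all genes tested had an interval as narrow and as close to 0. In averaged Het against WT all 8 did as well, between -0.34 (Ammecr1l) and 0.41 (Sap130), as did 59.4% of all genes.

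Within a sex the intervals were wider. They stayed inside a 1.5-fold change for 7 of 8 neighbours in male Homo mice (37.3% of all genes), for 8 of 8 in female Homo mice (49.2%), for 6 of 8 in male Het mice (43.9%) and for 8 of 8 in female Het mice (49%). Those that crossed it were Sft2d3, with an upper bound of 0.75 in male Homo and 0.64 in male Het mice, and Sap130, with an upper bound of 0.66 in male Het mice. In a simulation of male Homo against WT with 200 genes changed 2.5-fold, 68.5% of them were recovered. Recovery of a 1.5-fold change was not simulated.

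**Figure D2:**
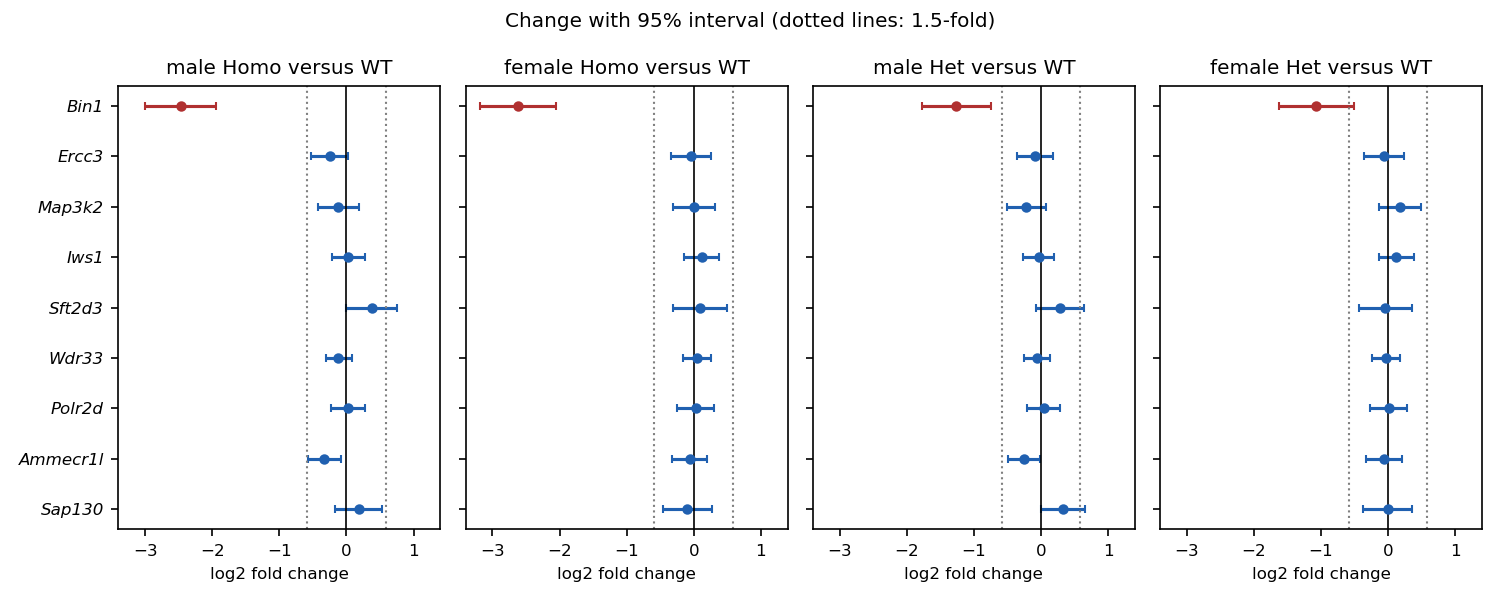
Log2 fold change (horizontal axis) of Bin1 (red) and the 8 neighbours (blue, ordered from the nearest to the farthest) with 95% intervals, in 4 comparisons; dotted lines mark a 1.5-fold change. Bin1 lies far to the left of every neighbour, from -2.62 in female Homo to -1.07 in female Het mice, and the intervals of Sft2d3 and Sap130 in males are the only ones of the neighbours to cross a dotted line.

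Homo and Het mice were compared among Cre-positive animals, which by their labels differ in the second copy of Bin1. The Het groups include Het-M-0199 and Het-F-0206, with Bin1 at 51.8 and 42.7 FPKM, the level of Homo mice. Without both libraries the counts of neighbours past the thresholds stayed at 0, and the log2 fold changes given here were not recomputed. In males 0 of 8 neighbours passed, as did 0 of all 16897 genes (0.0%), and in females 0 of 8, where 0.0118% did. Bin1 itself passed in females (-1.55, adjusted p = 0.0145) but not in males (-1.21, adjusted p = 0.624). At an unadjusted p below 0.05 there were 0 of 8 in each sex, beside 3.85% of all genes in males and 2.06% in females. The values lay between -0.16 (Ercc3) and 0.10 (Sft2d3) in males and between -0.17 (Map3k2) and 0.13 (Sft2d3) in females, with 8 of 8 intervals inside a 1.5-fold change in each sex (52% of all genes in males and 52.7% in females).

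Tests of whether the response differed between the sexes gave 0 of 8 for Homo and 0 of 8 for Het, as they gave 0 of all genes (0.0%) for each. Without adjustment, 0 of 8 were below a p of 0.05 in each test, beside 9.29% and 4.53% of all genes. The interval for a difference between the sexes is wide for single genes, for Ammecr1l from -0.63 to 0.10 and for Sft2d3 from -0.26 to 0.84 in male against female Homo response, and for Map3k2 from -0.82 to 0.04 in Het, so that a sex difference of 1.5-fold was inside the interval of these genes.

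Ammecr1l was the neighbour with the lowest log2 fold change against WT in Cre-positive males. In the 5 male WT libraries it was at 12.3, 14, 13.5, 13.1 and 12.4 FPKM. In the 5 male Homo libraries it was at 11.7, 10.3, 10.6, 11 and 11.3 FPKM. Every male Homo library was thus below every male WT library, a separation that 3.94% of all genes tested showed in this comparison and that none of the other 7 neighbours did. The 6 male Het libraries ran from 9.4 to 12.7 FPKM with a mean of 11.6 ± 1.21 (SD, n = 6), between the means of male WT (13.1 ± 0.727, SD, n = 5) and male Homo (11 ± 0.541, SD, n = 5), and overlapped both.

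The log2 fold change of Ammecr1l was -0.33 (SE 0.12, 95% interval -0.58 to -0.08) in male Homo mice, with an adjusted p of 0.113 by limma, and -0.25 (SE 0.12, interval -0.49 to -0.01) in male Het mice, with an adjusted p of 0.339. In female mice WT ran from 10.6 to 15.9, Het from 10.7 to 14.2 and Homo from 10.6 to 16.0 FPKM, and the log2 fold change was -0.06 in Homo (interval -0.33 to 0.20) and -0.06 in Het (interval -0.33 to 0.21). The female groups overlapped over nearly their whole range. With mouse number range in the fit the male Homo value was -0.19 (adjusted p = 0.729), and among late mice alone -0.22 (adjusted p = 0.817), so that its size moved by more than 1.5 times while its sign stayed.

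Both Het libraries with a Homo-like level of Bin1 had the lowest Ammecr1l of their group, an observation made after their values were seen. Het-M-0199 was at 9.4 FPKM, against 11 to 12.7 FPKM in the other male Het mice, and Het-F-0206 was at 10.7 FPKM, against 12 to 14.2 FPKM. Of the other neighbours, Wdr33 and Sap130 in Het-M-0199 and Map3k2 and Iws1 in Het-F-0206 were also below the range of their group, and Ercc3 and Polr2d in Het-M-0199 above it. Without both libraries the male Het value of Ammecr1l was -0.21 and the female one 0.00. How many of all genes lay outside the range of their group in these libraries was not counted. Whether Ammecr1l follows Bin1 in them was therefore not tested.

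Gm26533, the antisense gene whose exons overlap those of Ammecr1l, had the opposite order in male WT and male Homo mice. It was at 0.346, 0.771, 0.903, 1.38 and 1.55 FPKM in male WT and at 2.94, 2.14, 2.27, 2.72 and 1.67 FPKM in male Homo libraries. These groups did not overlap either, as 3.94% of all genes did not, and the log2 fold change was 1.2 (SE 0.56, interval 0.05 to 2.35, adjusted p = 0.203). Male Het libraries ran from 0 to 2.05 FPKM, with a log2 fold change of -0.09 (interval -1.19 to 1.01). In female Homo mice the log2 fold change was 0.35 (interval -0.87 to 1.58). How the estimation divided reads of the shared exons between Ammecr1l and Gm26533 was not tested.

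Ercc3, the nearest neighbour, was at 6.42, 5.12, 5.61, 4.52 and 5.72 FPKM in male WT libraries and at 5.23, 4.54, 4.03, 6.05 and 4.59 FPKM in male Homo libraries. The groups overlapped, with a log2 fold change of -0.25 (SE 0.14, interval -0.53 to 0.03, adjusted p = 0.282). In female mice WT was at 5.42 ± 0.343 (SD, n = 4), Het at 5.20 ± 0.358 (SD, n = 5) and Homo at 5.29 ± 0.512 FPKM (SD, n = 5), which is less than 1 SD apart. Among late mice alone the male Homo value was -0.04 (adjusted p = 0.98), and with mouse number range in the fit -0.13 (adjusted p = 0.868). Map3k2, the next gene along the chromosome, had means of 5.05 ± 0.806, 4.54 ± 0.581 and 4.87 ± 0.566 FPKM in male WT, Het and Homo mice (SD, n = 5, 6 and 5), and of 3.98 ± 0.323, 4.56 ± 0.75 and 4.05 ± 0.729 FPKM in females (SD, n = 4, 5 and 5). Its averaged log2 fold change was -0.06 in Homo (interval -0.28 to 0.16) and -0.02 in Het mice (interval -0.23 to 0.19).

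Iws1, Wdr33 and Polr2d, the elongation factor, the polyadenylation factor and the polymerase subunit, had averaged intervals that included 0. Averaged over the sexes in Homo against WT, Iws1 was at 0.08 (interval -0.10 to 0.25), Wdr33 at -0.03 (interval -0.18 to 0.11) and Polr2d at 0.03 (interval -0.16 to 0.21) on the log2 scale. Group means of Wdr33, the gene with the longest span of the 8, were between 25.0 and 26.6 FPKM in all 6 groups. Those of Polr2d were between 20.5 and 22.3 FPKM and those of Iws1 between 3.03 and 3.81 FPKM. Sft2d3, which ends tail to tail with Wdr33 on the opposite strand, ranged from 6.63 to 10.4 FPKM in its group means.

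Sft2d3 and Sap130 were the neighbours with the highest log2 fold changes against WT in Cre-positive males. Sft2d3 was at 7.80, 5.81, 6.28, 8.46 and 9.37 FPKM in male WT libraries and at 12.8, 9.64, 12.8, 7.94 and 8.98 FPKM in male Homo libraries, with 5.44 to 16.7 FPKM in male Het libraries. The log2 fold change was 0.38 (SE 0.18, interval 0.00 to 0.75, adjusted p = 0.224) in male Homo mice and 0.28 (SE 0.18, interval -0.08 to 0.64, adjusted p = 0.457) in male Het mice. In females the groups overlapped, at 6.12 to 7.66 FPKM in WT, 4.61 to 9.45 FPKM in Het and 6.60 to 8.04 FPKM in Homo libraries. Sap130 was at 6.55, 5.83, 6.92, 7.19 and 5.28 FPKM in male WT libraries and at 9.29, 8.27, 8.96, 5.69 and 6.44 FPKM in male Homo libraries, with 5.30 to 13.9 FPKM in male Het libraries. Its log2 fold change was 0.18 (SE 0.17, interval -0.17 to 0.53, adjusted p = 0.549) in male Homo and 0.33 (SE 0.16, interval 0.00 to 0.66, adjusted p = 0.354) in male Het mice. The male Het value includes Het-M-0199, the lowest male Het library for Sap130 at 5.30 FPKM. Over all settings the male Het value of Sap130 ran from 0.11 to 0.45.

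Most of the high values of both genes in males were those of early mouse numbers. Sap130 was at 13.9 and 10.9 FPKM in the early libraries Het-M-0100 and Het-M-0108 and at 9.29, 8.27 and 8.96 FPKM in Homo-M-0093, Homo-M-0097 and Homo-M-0109. In the late Cre-positive males it was at 5.30 to 10.3 FPKM, with only Het-M-0203 above 6.72 FPKM, and that library was above all 3 early male Homo libraries. Sft2d3 was at 11.6 FPKM in Het-M-0203 as well, the same as in the early Het-M-0108 and above the 9.64 FPKM of the early Homo-M-0097. The early library among the females, WT-F-0122, was at 7.38 FPKM for Sap130 and 6.59 FPKM for Sft2d3, within the range of the late female WT libraries. Compared over the 5 early and 6 late Cre-positive males with genotype in the fit, Sap130 was 0.55 higher on the log2 scale in early mice (interval 0.23 to 0.86, adjusted p = 0.0342 by limma). This difference corresponds to less than 1.5-fold, so that 0 of 8 neighbours passed both thresholds here, where 7.42% of all genes did, and Sap130 was 1 of 8 with an adjusted p below 0.05, where 14.6% of all genes had one. Sft2d3 was 0.50 higher (interval 0.11 to 0.89, adjusted p = 0.0764), and the other 6 neighbours lay between -0.24 (Ercc3) and 0.13 (Iws1).

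With mouse number range in the fit, the male Homo value of Sap130 became -0.09 (adjusted p = 0.929) and that of Sft2d3 0.15 (adjusted p = 0.878). Among late mice alone, with 2 male Homo and 5 male WT mice, they were -0.06 (adjusted p = 0.974) and 0.18 (adjusted p = 0.917). Since no male WT mouse had an early number, WT gives no value for the early range in males.

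**Figure D3:**
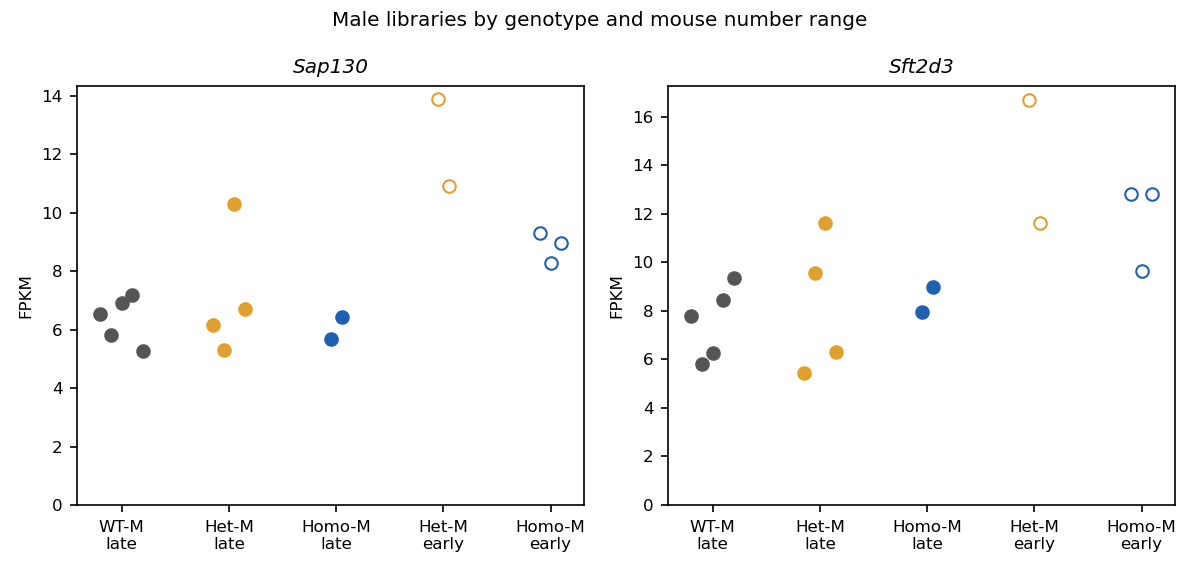
FPKM (vertical axis, linear from 0) of Sap130 and Sft2d3 in the male libraries, by genotype and mouse number range (horizontal axis); each circle is a library, open for early numbers. The early Cre-positive libraries, at 8.27 to 13.9 FPKM for Sap130, are above all late ones except Het-M-0203 at 10.3 FPKM.

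Between the sexes, averaged over genotypes, 0 of 8 neighbours passed both thresholds, where 0.438% of all genes did, 0 had an adjusted p below 0.05, where 1.24% had, and 2 had an unadjusted p below 0.05, where 26.8% of all genes had. These were Sft2d3, at -0.36 on the log2 scale in females against males (SE 0.11, interval -0.58 to -0.14, adjusted p = 0.0651), and Ammecr1l, at 0.16 in females against males (SE 0.07, interval 0.02 to 0.31, adjusted p = 0.146). Early numbers are 5 of 16 male and 1 of 14 female libraries.

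The other genes around Bin1 were taken as the rest of the neighbourhood. Within 1 Mb on either side of Bin1 the annotation and the table share 40 further genes, of which 17 passed the filter, the 8 neighbours and 9 others. In all 4 comparisons with WT and in both averaged ones, 0 of the 17 passed both thresholds, where at most 1.81% of all genes did, so that a count of 0 is near the background. Of the 23 that did not pass the filter, 13 were at 0 in every library, and Gpr17, Lims2, Proc, Gypc and Camk4 had mean levels below 0.1 FPKM.

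The 9 others are given by their averaged Homo value against WT on the log2 scale. A830052D11Rik, a lincRNA whose exons overlap the start of Bin1 on the opposite strand, was at 2.41, 3.01 and 3.41 FPKM on average in male WT, Het and Homo mice, with an averaged Homo log2 fold change of 0.20 (interval -0.19 to 0.59, adjusted p = 0.657). This interval lies above that of Bin1 (-2.93 to -2.16), and reads of the shared exons cannot be told apart in these libraries. Downstream of Bin1, Tslp, a cytokine gene 379.6 kb away, was at -0.06 (interval -0.59 to 0.48), Wdr36, a ribosome biogenesis gene 401.5 kb away, at -0.16 (interval -0.36 to 0.03) and Stard4, a sterol carrier gene 763.6 kb away, at 0.52 (interval -0.06 to 1.10). Upstream beyond Sap130, Slc25a46, a mitochondrial outer membrane gene, was at 0.01 (interval -0.15 to 0.17) and B930094E09Rik at 0.14 (interval -0.66 to 0.94). Gm16344 was at 0.27 (interval -0.15 to 0.68), Gm26823 at 0.39 (interval -0.20 to 0.99) and Gm26533, as above, had the largest averaged Homo value of the 17 at 0.78 (interval -0.06 to 1.62, adjusted p = 0.394).

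**Figure D4:**
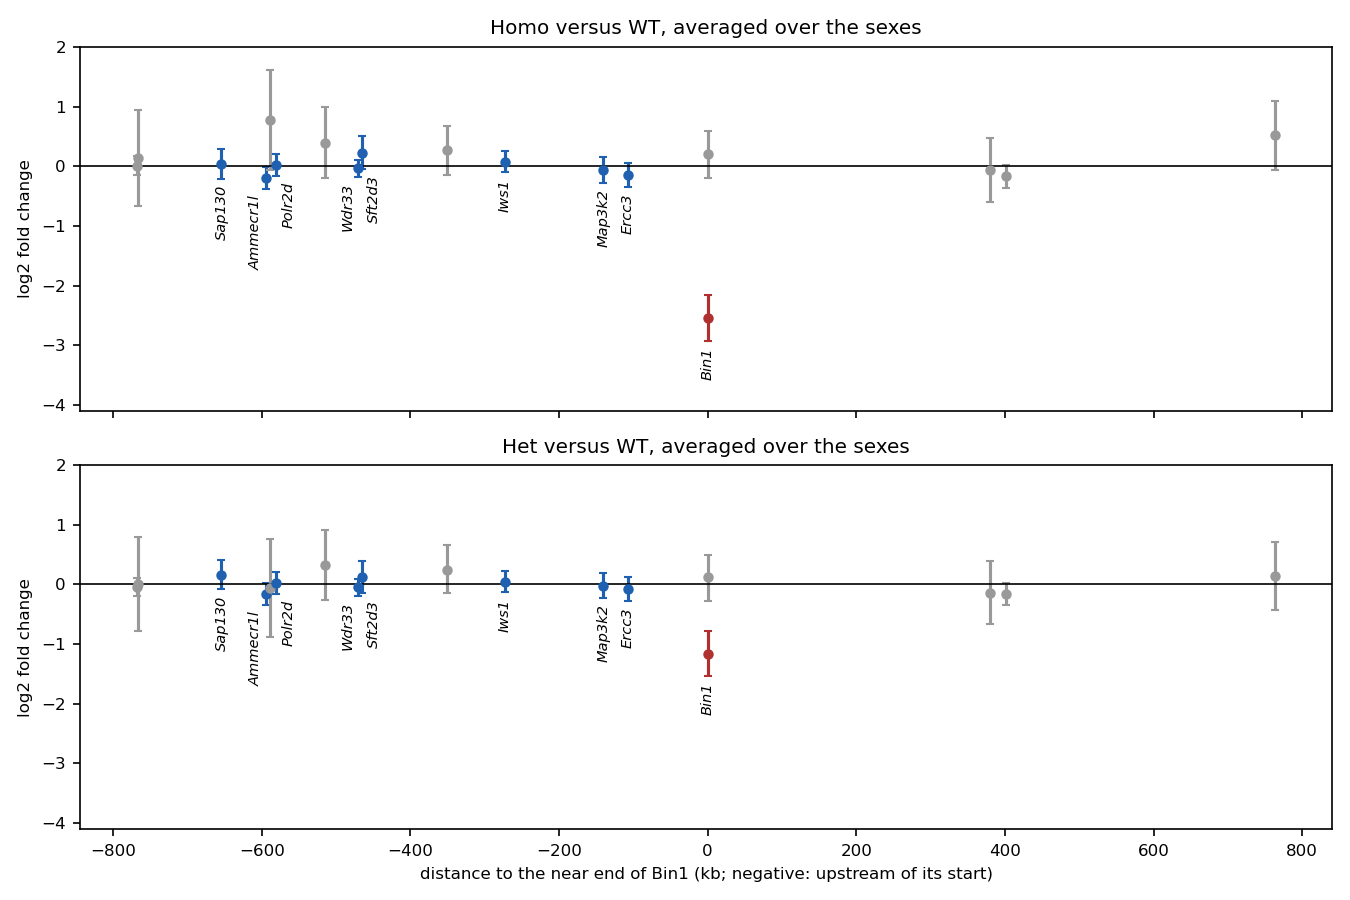
Log2 fold change with its 95% interval (vertical axis) against the distance of each tested gene from the near end of Bin1 in kb (horizontal axis, negative upstream), for Homo (top) and Het (bottom) against WT averaged over the sexes; blue are the 8 neighbours, grey the other 9 genes within 1 Mb and red Bin1. Bin1 is at -2.54 in Homo and -1.16 in Het mice, and all 8 neighbours lie between -0.20 and 0.23.

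Farther along chromosome 18 the count of genes past both thresholds stayed at 0 up to 20 Mb from Bin1. In male Homo against WT mice, 0 of 60 genes between 1 and 5 Mb and 0 of 112 genes between 5 and 20 Mb passed both thresholds, whereas 7 of 191 genes beyond 20 Mb did (3.66%), among them Lox, Ndst1 and Cd74, beside 298 of 16440 genes on other chromosomes (1.81%). The median absolute log2 fold change was 0.21 over the 17 genes within 1 Mb, 0.29 between 1 and 5 Mb, 0.23 between 5 and 20 Mb, 0.25 beyond 20 Mb and 0.26 on other chromosomes. In female Homo mice the same medians were 0.12 within 1 Mb and 0.12 on other chromosomes. Shares at an unadjusted p below 0.05 in male Homo mice were 11.8% within 1 Mb, 31.7% between 1 and 5 Mb and 16.1% between 5 and 20 Mb. Beyond 20 Mb the share was 25.7%, and on other chromosomes 22.5%. In averaged Homo against WT the same 5 shares were 5.88%, 21.7%, 12.5%, 15.7% and 14.1%. The cause of the differences between these shares was not tested.

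The complexes, pathways and families to which the neighbours belong were counted as well, from 8 lists of 78 genes that exclude the neighbours themselves. All 78 were tested. In male Homo against WT mice 0 were higher and 1 was lower past both thresholds, where 1.81% of all genes passed. This count is near the background. At an unadjusted p below 0.05 there were 21 of 78, where 22.5% of all genes were. In female Homo, male Het and female Het mice 0 passed in either direction, where 0.071%, 0.154% and 0.13% of all genes did. In the same 3 comparisons 0, 15 and 1 were at an unadjusted p below 0.05, where 3.49%, 14.2% and 3.95% of all genes were. The medians of the averaged Homo log2 fold changes were -0.004 for 9 TFIIH genes and -0.08 for 12 RNA polymerase II subunits. They were -0.10 for 12 genes of transcription elongation and -0.05 for 15 cleavage and polyadenylation genes. For 16 Sin3 complex genes the median was -0.06 and for 11 genes of MEKK2 signalling -0.03, beside 0.02 over all genes. Both SFT2 genes had a median of -0.05, and Ammecr1 was at -0.11 (interval -0.48 to 0.26).

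The gene that passed was Sap30, which encodes a subunit of the Sin3 complex that holds Sap130. It was at 16.1, 14.7, 13.2, 16.8 and 17.5 FPKM in male WT libraries and at 7.29, 7.85, 11.4, 8.27 and 12.1 FPKM in male Homo libraries, without overlap. Sap30 fell by 0.84 on the log2 scale in male Homo mice (SE 0.18, interval -1.2 to -0.47, adjusted p = 0.0126 by limma). The value was -0.58 in male Het mice (adjusted p = 0.163) and -0.18 in female Homo mice (interval -0.57 to 0.21). With mouse number range in the fit it was -0.61 (adjusted p = 0.212), among late mice alone -0.64 (adjusted p = 0.421) and without Homo-M-0093 -0.73 (adjusted p = 0.0584), so that the call ended in each of these while the direction stayed. Of the other lists, the genes with the largest averaged Homo value were Polr2k (0.41), Mapk8 (0.33), Leo1 (-0.33), Cpsf2 (-0.23), Ercc2 (-0.22) and Sft2d2 (-0.20), with adjusted p-values between 0.271 and 0.438.

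The neighbours did not vary as a block between mice. Over the 30 libraries, with the group means removed, the 28 pairs of the 8 genes had correlations of their log2 levels between -0.69 (Ercc3 and Sap130) and 0.58 (Sap130 and Sft2d3), with a median of 0.02 and 14 pairs above 0. Libraries share depth and number range in these values, which are given as a description. Early and late mice lie within the same male groups, so that the value of Sap130 and Sft2d3 holds the early against late difference given above. Ercc3 stood opposite to both (-0.69 with Sap130 and -0.52 with Sft2d3), as did Ammecr1l to Sft2d3 (-0.55).

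On the same measure the genes most like each neighbour were not among the other 7, and all those with a known position lie on other chromosomes. Sap130 was closest to Srsf1, a splicing factor gene (r = 0.92), and Ivns1abp (r = 0.91), and Sft2d3 to Gm37760 (r = 0.94) and an Ensembl gene without a symbol (r = 0.92). Ercc3 was closest to Rrp1, a ribosome biogenesis gene (r = 0.84), and Nrm (r = 0.83), Ammecr1l to Acvr2a, an activin receptor gene (r = 0.83), and Afap1 (r = 0.81), and Iws1 to Abl2 and Ints1 (both r = 0.82). Map3k2 was closest to Hipk1 and Notch1 (both r = 0.81), Polr2d to Anapc11 (r = 0.79) and Sft2d1 (r = 0.75), and Wdr33 to Teddm2 (r = 0.70) and AI597479 (r = 0.69). Each is 1 of the highest 2 of its neighbour over 30 libraries, and says nothing of shared function.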

How the data were processed

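RNA of FACS-sorted microglia (CD11b+ CD45med) was sequenced by the authors with the SMARTer Ultra Low Input and Nextera XT kits. This follows the study, since the filed protocol is of cultured cells and names TruSeq as well. Per the methods and the labels, the authors aligned reads to mm10 with OmicSoft OSA4 and an Ensembl gene model, estimated abundance with RSEM, and deposited FPKM per gene without a logarithm. They removed 6 libraries for quality, and the 6 columns of the table that match no listed sample were not used. Counts, which the authors fitted with DESeq2, were not used here.

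Libraries were brought to a common scale by median-of-ratios factors from genes averaging at least 1 FPKM, and a pseudocount of 0.1 was added before log2, so that changes of low genes are understated. The 16897 genes with a mean of at least 0.1 FPKM were fitted in limma 3.58.1 (R 4.3.3, empirical Bayes with a trend) over 6 groups, with 95% intervals from the same fit and Benjamini-Hochberg adjustment over all of them. A gene was called at an adjusted p below 0.05 and a change above 1.5-fold, as in the study, whose further limit on normalized counts could not be set on FPKM and was replaced by the filter above. Read totals are unknown, and single values therefore carry no counting error. On simulated data with 200 genes changed 2.5-fold in male Homo against WT, 68.5% were called with 4 false calls. In female Homo against WT of the same simulation, where no gene was changed, 94.7% of intervals held 0.

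Positions were taken from GENCODE M21 on GRCm38, the same assembly as mm10, for 47224 of 47643 genes, whereas the study used its Ensembl gene model. Genes other than the 8 were named by rule: Bin1 and Cx3cr1, tested genes within 1 Mb of Bin1, genes of the partner lists past the thresholds or with the largest averaged Homo change of their list, and for each neighbour the 2 genes with the highest correlation. Gm26533 and Sap30 are given by library after their values were seen. The members and lists were chosen with earlier results of these data known. Alternatives were 2 pseudocounts, 2 filters, 2 scalings, array weights, the groups compared alone, the number range, the 2 Het libraries and leaving out each library. Each library is 1 mouse number, taken as 1 animal.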

Additional observations from a re-analysis of the deposited data

Results flagged for a closer look

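Of 48 groups of 4 to 6 libraries, 8 genes in 6 groups, 2 had a library whose gap to the nearest other exceeded Dixon's 95% limit, where chance gives about 1 in 20. Wdr33 was at 22.5 FPKM in WT-M-0176, below the other 4 male WT libraries, the nearest of which was at 25.9 FPKM (gap over range 0.826 against a limit of 0.71). Sft2d3 was at 8.04 FPKM in Homo-F-0201, above the other 4 female Homo libraries, the nearest of which was at 6.99 FPKM (0.726 against 0.71). None of the 8 neighbours passed the interaction test of sex and genotype in limma.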

How the results depend on the processing

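In all 400 recomputed counts and medians of the 8 neighbours, the count past the thresholds stayed at 0 and the medians stayed within the spread between libraries, between -0.091 and 0.041 on the log2 scale. Of the single log2 fold changes, 496 of 528 kept their sign under other settings and 579 of 624 with 1 library left out. No neighbour was called under any of them, with a smallest adjusted p of 0.0818 (Ammecr1l in male Homo mice) and a largest size of 0.46 (Sft2d3 in male Homo mice). After the change of sign, all of these values were at most 0.11 in size. With FPKM as deposited, where the median of all genes in male Homo mice moved to 0.108 from 0.031, they were Iws1 and Wdr33 in male Het (0.04 and 0.01), Sap130 in female Het (0.00), Wdr33 in averaged Homo (0.01) and Map3k2 in averaged Het mice (0.02). With quantile normalization they were Iws1 in male Homo (-0.08), Map3k2 in female Homo (-0.01) and Iws1 in averaged Het mice (-0.01), and with array weights Polr2d (-0.01) and Sap130 (0.02) in female Het mice. With number range in the fit they were Iws1 (-0.02) and Sap130 (-0.09) in male Homo, Map3k2 (-0.03), Polr2d (0.00) and Sap130 (0.01) in female Homo, Polr2d (-0.02), Sap130 (0.11) and Sft2d3 (0.06) in female Het and Sap130 in averaged Homo mice (-0.04). Among late mice alone they were Iws1 (-0.05) and Sap130 (-0.06) in male Homo, Polr2d (0.00) and Sap130 (0.02) in female Het, Wdr33 (0.03) and Sap130 (-0.07) in averaged Homo and Map3k2 in averaged Het mice (0.04). Without Het-M-0199 and Het-F-0206 they were Polr2d in male Het (-0.04), Polr2d (-0.02), Ammecr1l (0.00) and Sap130 (0.02) in female Het, and Map3k2 (0.02) and Polr2d (-0.03) in averaged Het mice. The cause was not tested.

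With 1 library left out at a time, 18 values crossed 0. In male Homo mice these were Iws1 (-0.03 to 0.11) and Polr2d (-0.06 to 0.11), and in male Het mice Iws1 (-0.09 to 0.04) and Polr2d (-0.03 to 0.13). In female Homo mice they were Ammecr1l (-0.18 to 0.04), Ercc3 (-0.08 to 0.00), Map3k2 (-0.05 to 0.10), Polr2d (-0.04 to 0.10), Sap130 (-0.17 to 0.00) and Wdr33 (-0.01 to 0.11). In female Het mice they were Ammecr1l (-0.17 to 0.04), Polr2d (-0.04 to 0.03), Sap130 (-0.08 to 0.09), Sft2d3 (-0.17 to 0.07) and Wdr33 (-0.07 to 0.00). Averaged over the sexes they were Polr2d in Homo (-0.01 to 0.07) and Map3k2 (-0.07 to 0.02) and Polr2d (-0.01 to 0.07) in Het mice. Alternatives for Sap30 were added after its value was seen, and it was between -0.95 and -0.61 under all of them. No paired analysis was possible because mouse numbers are not shared between groups. FPKM hold no read totals, so that depth limits each value by an unknown amount.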

Other observations

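Of the neighbourhood genes that did not pass the filter, the protein-coding ones with a value above 0 in any library stayed low in microglia. Camk4, a calcium-dependent kinase gene 499.2 kb downstream of Bin1, was above 0 in 30 libraries with a mean of 0.0937 FPKM. Lims2, a focal adhesion gene, was above 0 in 17 libraries (mean 0.075 FPKM), Syt4, a vesicle fusion gene, in 18 (0.0546 FPKM) and Gypc, a glycophorin gene 92.6 kb downstream of Bin1, in 10 (0.0469 FPKM). Gpr17, a receptor of oligodendrocyte precursors, was above 0 in 15 libraries (mean 0.0268 FPKM) and Proc, the gene of the clotting factor protein C, in 1 (0.00215 FPKM). Myo7b was at 0 in all 30. No test was made of these genes.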
